A study of Rattus norvegicus with 20 samples.

Results

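Among the genes of rat soleus muscle, 63 had more than 4 times the level after complete transection of the spinal cord that they had in uninjured rats, and these 63 members are described here across every group of the study. They were chosen by their measured CPM (counts per 1000000 counts, scaled) in the transection and uninjured libraries: a transection mean of at least 1 CPM, more than 4 times the uninjured mean, and every transection library above every uninjured library. Of 13398 genes tested, 70 met the limits on mean and ratio, 64 of these did not overlap between the groups, and the gene with the largest ratio of all was left out by the rule. The direction from uninjured to transection is therefore set by the choice of members and is no result. The deposited table gives Ensembl identifiers, 0 of which could be paired with a gene symbol here, so members are numbered from 1 (the largest ratio of transection to uninjured mean) to 63 (the smallest), and 2 of them are named by identifier.

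The soleus is a calf muscle made mostly of slow fibres, and it is used in standing. When the spinal cord above its motor neurons is cut, the muscle loses its voluntary drive and much of its load bearing; such muscles are known to lose mass and to take on features of fast fibres. A contusion bruises the cord and can spare some fibres, so that part of the drive can return. Which of these known programmes the members belong to was not tested, because the identifiers carry no names.

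RNA sequencing counts came from 20 Sprague-Dawley rats, as 5 groups of 4 libraries. The groups were uninjured rats without exercise (labelled 11.5 weeks), T2 complete transection without exercise (8.5 weeks after injury), T2 contusion of 25 g-cm without exercise (11.5 weeks), the same contusion with swimming, labelled SWIM (13.5 weeks), and with shallow water walking, labelled SWW (13.5 weeks). Exercise started 2.5 weeks after injury and was given on 5 days a week for 10 weeks, and after 4 days all rats were kept in small cages that limited movement. Time after injury differs between most groups together with the injury or exercise, and the 2 cannot be told apart. In bulk muscle, more cells of a type and more RNA per cell cannot be told apart either.

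Libraries held 21165832 to 39729930 counts. A pair of libraries stood apart from their groups. Transection library 3 had 13837 genes with a count, against 15037 to 15610 in the other transection libraries, and the lowest scaling factor of all (0.711). Swimming library 2 had 15478 genes with a count and a scaling factor of 1.07, both inside the range of the other libraries. It held far more of the members' RNA than any other contused library, as given below. Over genes with enough counts, members included, a chi-square per degree of freedom compared the counts of each pair of libraries within a group. It was 390, 458 and 517 for the pairs with swimming library 2, and 26.5 to 133 for all other pairs. Markers of fibre types and of other cell types could not be read without gene names.

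The members ranged widely in level. Their uninjured means ran from 0.0626 to 3509 CPM, with a median of 4.26, and their transection means from 1.01 to 33463 CPM, with a median of 35.2. The ratio of these means was over 10 in 16 members, over 5 and up to 10 in 24, and up to 5 in 23, with a median of 5.94. At the edge of the rule, the last members had ratios of 4.006 and 4.004, and the nearest genes outside it had ratios of 3.994 and 3.990. The lowest transection library stood over the highest uninjured library by 2.62-fold at the median member, by under 2-fold in 22 members and by over 4-fold in 21. Some uninjured means rest on few reads: 10 members had under 100 counts over the 4 uninjured libraries, the fewest being 9 for member 5, so their ratios carry a large counting error. Of the 63 members, 61 were called in this comparison (edgeR quasi-likelihood test, adjusted p below 0.05), as were 13.4% of all genes in this direction; since the rule used the same contrast, nothing is read from that count. The members not called were 56 and 63.

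Scaling bears on how many genes meet the rule. When CPM were scaled by library totals alone, 34 genes met it, and the median log2 difference of all genes between transection and uninjured moved from 0.02 to -0.32. Leaving out single libraries gave between 52 members (without transection library 3) and 81 (without uninjured library 2).

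**Figure D1:**
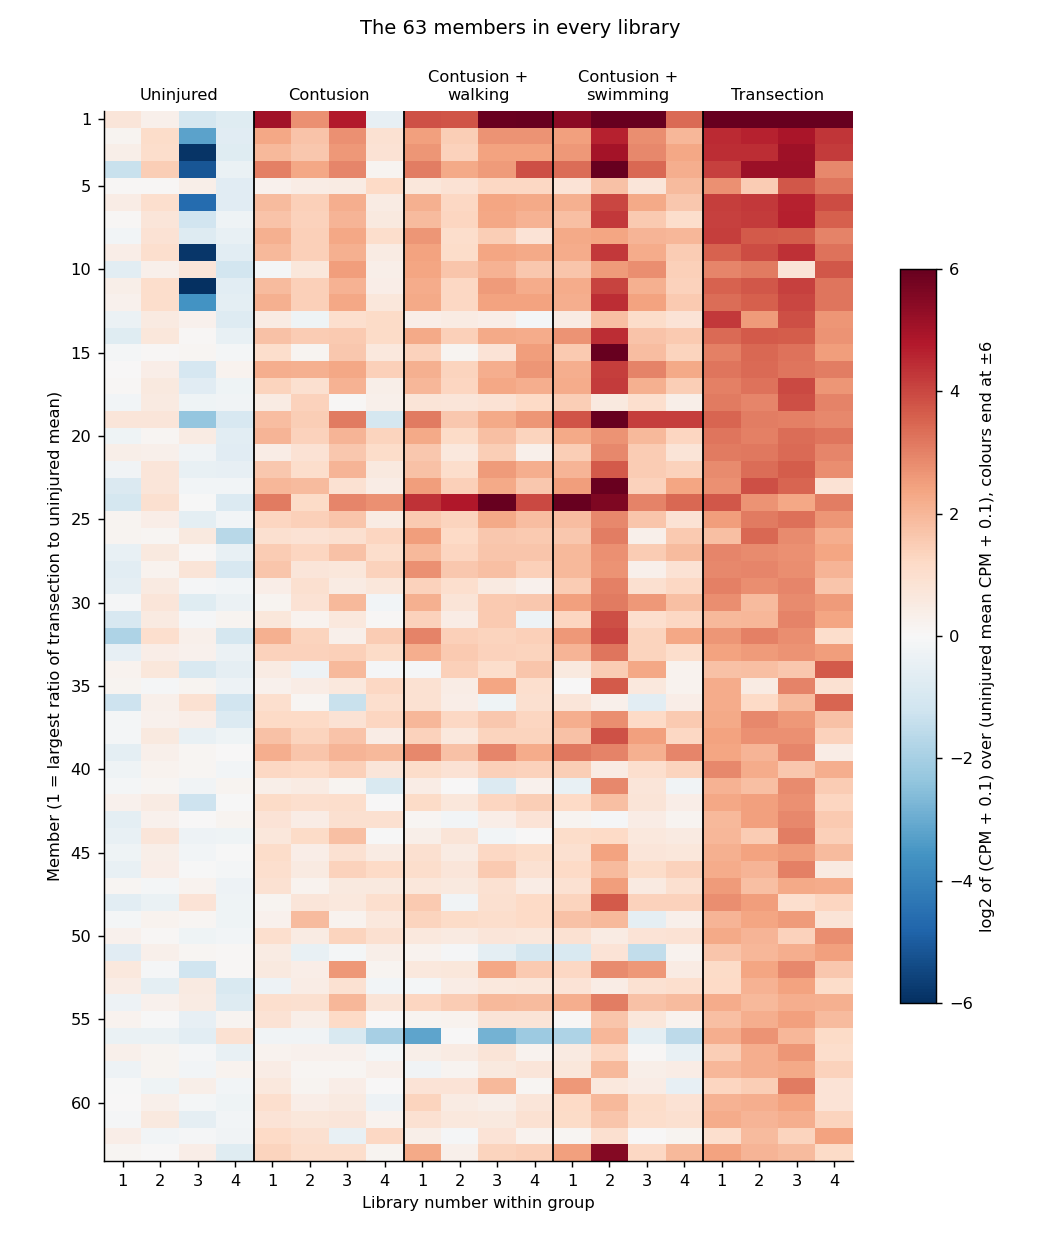
Level of each of the 63 members (rows, numbered by ratio) in each of the 20 libraries (columns), as the log2 of CPM over the uninjured mean with 0.1 added to both; colours end at ±6. Transection libraries are high by choice of the members; contused libraries lie between, swimming library 2 is the darkest contused column, and uninjured library 3 is far below the other uninjured libraries for a few members near the top.

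The members together held a larger part of the RNA in every transection library than in any uninjured library. The rule, made on scaled CPM, largely though not strictly sets this order of the members' unscaled shares. Their share of all counts, without any scaling factor, was 1.38%, 1.90%, 0.605% and 0.996% in the uninjured libraries and 10.2%, 9.78%, 12.0% and 9.28% in the transection libraries. The contused groups, which the rule did not use, gave 3.05%, 2.45%, 3.96% and 1.64% without exercise and 4.24%, 2.21%, 4.03% and 3.75% with walking. With swimming the values were 4.20%, 16.1%, 4.28% and 3.14%. Swimming library 2 thus lay above all 4 transection libraries, while the other 11 contused libraries lay below every transection library. Contusion library 4, at 1.64%, was the only contused library inside the uninjured range. Group means were 2.78 ± 0.980% after contusion, 3.56 ± 0.923% with walking and 6.93 ± 6.15% with swimming, beside 1.22 ± 0.553% in uninjured and 10.3 ± 1.20% in transection muscle (SD, n = 4 each).

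**Figure D2:**
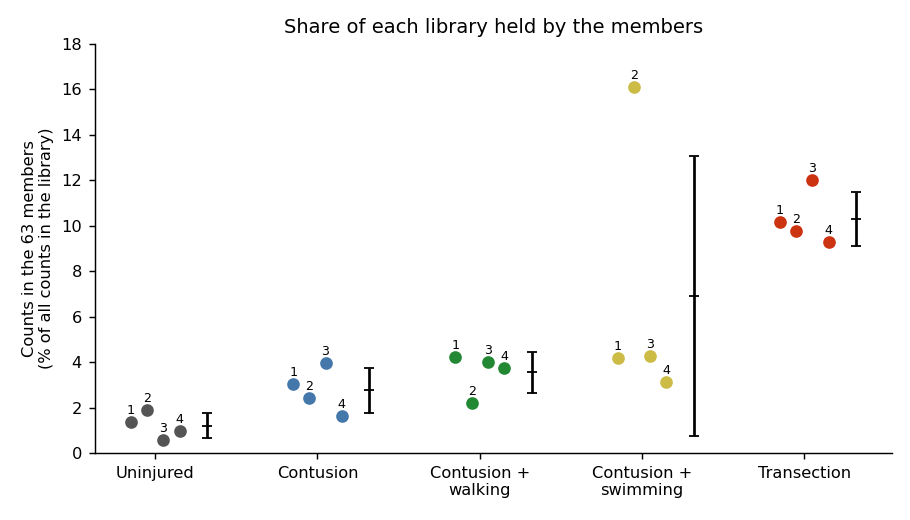
Percent of all counts in each library that fell on the 63 members, by group; points are libraries with their numbers, and bars beside them are the mean ± SD of 4 libraries. Swimming library 2 stands at 16.1%, above the transection libraries, while the other contused libraries lie between 1.64% and 4.28%.

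Most of this RNA came from 10 members with a transection mean of 1000 CPM or more. CPM is not divided by transcript length, so these bands rank members by counts and not by transcript copies. These 10 took 8.92% to 11.7% of the counts in transection libraries and 0.553% to 1.81% in uninjured libraries. All 10 were among the 50 genes with the most counts after transection, whereas 1 of them was among the 50 with the most in uninjured muscle. A further 12 members reached 100 to 1000 CPM after transection, 21 reached 10 to 100, and 20 stayed below 10.

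ENSRNOG00000049695 (member 3) had the most counts of any member after transection. It stood at 30519, 30531, 47148 and 25654 CPM in the transection libraries and at 1812, 2950, 23.8 and 841 CPM in the uninjured libraries. Uninjured library 3 was therefore more than 10-fold below the next lowest, while the other 3 uninjured libraries lay within a few-fold of each other. Contusion libraries held 5404, 4335, 8541 and 2526 CPM, walking libraries 8772, 3663, 7584 and 7555, and swimming libraries 8589, 44427, 10259 and 6965. All contused libraries except contusion library 4 lay above the highest uninjured library, and swimming library 2 alone reached the transection range. Its log2 difference was 1.89 (SE 0.86) for contusion against uninjured and 0.41 (SE 0.83) for walking against contusion, and neither passed (edgeR adjusted p = 0.479 and 1.00). For swimming against contusion it was 1.76 (SE 0.86, adjusted p = 0.235), and 0.73 without swimming library 2 (adjusted p = 0.680).

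Other abundant members shared this order of libraries. Uninjured library 3 was the lowest uninjured library in 8 of the 10 abundant members, contusion library 4 the lowest of the 12 contused libraries in 8, swimming library 2 the highest of the 12 in 9, and transection library 3 the highest transection library in 10. In 4 of the 10, uninjured library 3 was more than 10-fold below the next uninjured library. Member 11 showed this most, at 663, 1063, 4.42 and 329 CPM in the uninjured libraries, against 4714 to 8850 after transection. The heat map shows the same dark cells in uninjured library 3 for members 3, 6, 9 and 11. A wide spread was not limited to the abundant members: the median SD of log2 CPM within the uninjured group was 0.57 over the 63 members and 0.24 over all genes tested. It was 0.55 and 0.22 after contusion, 0.52 and 0.26 with walking, and 0.95 and 0.29 with swimming.

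ENSRNOG00000006471 (member 1) had the largest ratio of the members. Uninjured libraries held 1.56, 1.15, 0.382 and 0.505 CPM and transection libraries 161, 163, 65.0 and 149 CPM. After contusion it stood at 32.5, 6.63, 26.6 and 0.611 CPM, so library 4 was inside the uninjured range and the other 3 were above it. Walking libraries held 13.8, 13.5, 61.1 and 124 CPM, all above every uninjured library. Swimming libraries held 42.5, 4469, 66.0 and 10.3 CPM, and library 2 was far over the next highest. The mean after swimming, 1147 ± 2215 CPM (SD, n = 4), thus rests on that library and was 39.6 CPM over the other 3. Against contusion the log2 difference with swimming was 6.12 (SE 1.70), which missed the threshold (edgeR adjusted p = 0.0501); without swimming library 2 it was 1.27 (adjusted p = 0.502). Its adjusted p ran from 0.0330 to 0.502 over the alternatives tried.

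**Figure D3:**
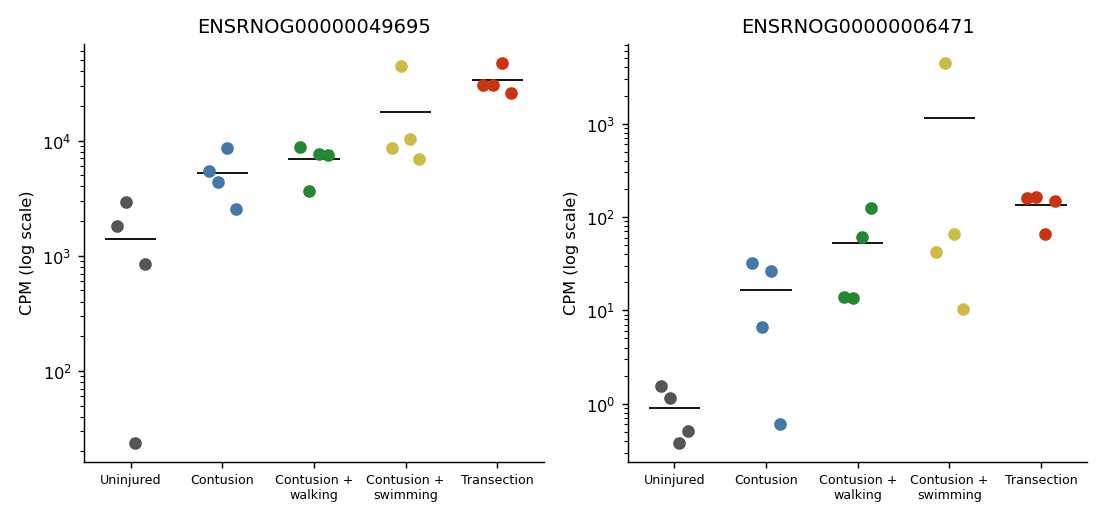
CPM on a log axis of ENSRNOG00000049695, the member with the most counts after transection (left), and ENSRNOG00000006471, the member with the largest ratio (right), in every library; lines are group means. Uninjured library 3 lies at 23.8 CPM on the left, and swimming library 2 at 4469 CPM on the right, above the transection libraries.

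Contusion without exercise was set beside uninjured muscle to see how the members stood after an incomplete injury at the same labelled time. The comparison shares its uninjured libraries with the rule, so its values describe the members and support nothing. The contusion mean lay between the uninjured and transection means in 62 of 63 members and below the uninjured mean in 1, member 56. The median member stood at 2.21 times its uninjured mean and at 0.315 times its transection mean. In 39 members the contusion mean was over 2 times the uninjured mean, as in 1.64% of all genes, and in 21 members every contusion library lay above every uninjured library, as in 3.58% of all genes. No member was called: edgeR called 0 of 63, and 0% of all genes, while 36 members were higher at an unadjusted p under 0.05 (5.04% of all genes). DESeq2 called 11, beside 0.284% of all genes. Without transection library 3 and swimming library 2, neither of which is in this comparison, edgeR called 7. Leaving them out changes the shared estimate of spread and the scaling, and can change which genes pass the filter. The share of all genes called was not counted there, so the 7 is not read as particular to the members. The median log2 difference was 1.11 over the members and 0.01 over all genes, with a median SE of 0.50 for a member.

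Direct comparison with transection gave 39 members higher after transection than after contusion and 0 lower (edgeR adjusted p below 0.05), beside 6.07% of all genes higher. This comparison shares its transection libraries with the rule. The count was 25 without transection library 3 and 25 without contusion library 4, with the share of all genes not counted there.

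To place each library on a single scale, the log2 CPM of each member was set to 0 at its uninjured mean and 1 at its transection mean. The median over members was 0.487, 0.385, 0.566 and 0.271 in the contusion libraries, 0.578, 0.379, 0.621 and 0.608 in the walking libraries, and 0.653, 1.05, 0.533 and 0.481 in the swimming libraries. Swimming library 2 was thus at the level of transection on this scale, and the other 11 contused libraries lay between 0.271 and 0.653. Uninjured library 2 was the highest of its group at 0.173, and transection library 4 the lowest of its group at 0.860. Between 32 (contusion library 4) and 60 (swimming library 2) of the 63 members stood above their highest uninjured value in a contused library. The number that reached their lowest transection value was 4 to 18 in contused libraries other than swimming library 2, where it was 47.

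**Figure D4:**
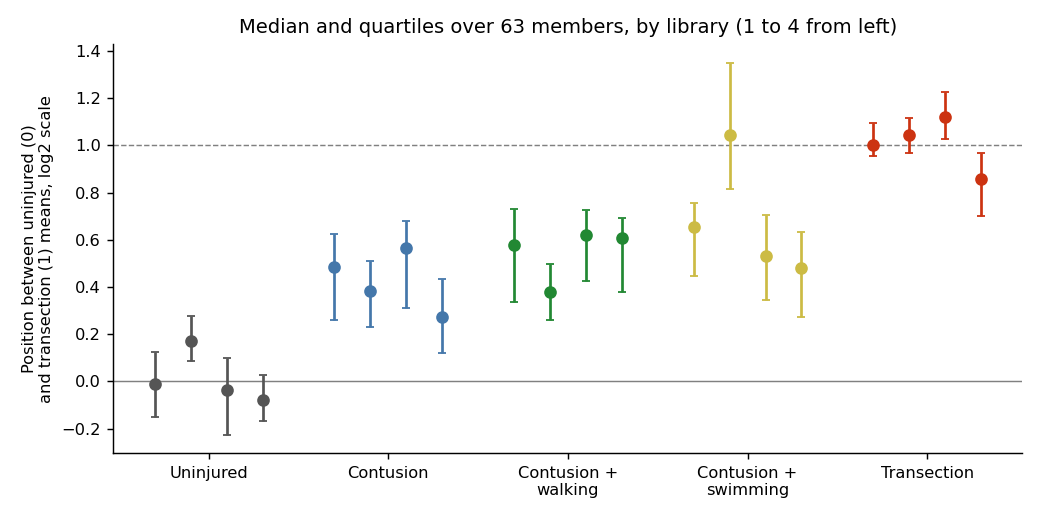
Position of the members in each library on a log2 scale with 0 at the uninjured mean and 1 at the transection mean; points are medians over 63 members and bars the quartiles, with libraries 1 to 4 from left to right in each group. The medians of 11 contused libraries lie between 0.271 and 0.653, and swimming library 2 is at 1.05.

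Shallow water walking after contusion was compared with contusion alone, and neither group was used to choose the members. Each gene's spread was estimated over all 5 groups, so the p-values still draw in part on the libraries of the rule. No member was called: 0 of 63 passed edgeR's quasi-likelihood test, as did 0% of all genes, with 1 member higher at an unadjusted p under 0.05 (1.16% of all genes). DESeq2 called 0 members and 0% of all genes. The walking mean was above the contusion mean in 51 of 63 members, while 51.0% of all genes had a log2 difference above 0. The median log2 difference was 0.34 over the members, with a median SE of 0.48 for a single member, and 0.01 over all genes. In 1 member all walking libraries lay above all contusion libraries, as in 1.04% of all genes. That was member 24, at 27.0, 38.6, 98.7 and 21.1 CPM with walking and 11.9, 2.95, 10.2 and 8.89 CPM after contusion; it was singled out after its values were seen. Its log2 difference was 2.45 (SE 0.84) and did not hold after adjustment over all genes (edgeR adjusted p = 1.00).

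Against uninjured muscle, which shares libraries with the rule, 10 members were higher with walking (edgeR adjusted p below 0.05), beside 0.164% of all genes. These were members 16, 20, 24, 25, 27, 33, 37, 39, 40 and 54, and none of the 10 most abundant members was among them. The number called was 26 with DESeq2 (1.22% of all genes). It was 20 without transection library 3 and swimming library 2, and 2 without uninjured library 1 or 4. Without walking library 1 or 3 it was 2, and without walking library 4 it was 4. The share of all genes was not counted with libraries left out. In 42 members all walking libraries lay above all uninjured libraries, as in 4.41% of all genes, and in 44 the mean was over 2 times the uninjured mean, as in 2.15% of all genes. The median log2 difference was 1.57 over the members and 0.02 over all genes. Against transection, 31 members were lower with walking than after the complete injury, beside 8.96% of all genes, and 0 were higher with walking.

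Swimming after contusion was likewise compared with contusion alone, and neither group was used to choose the members. The p-values are not independent of the rule, because each gene's spread was estimated over all 5 groups. Of the 63 members, 5 were higher with swimming and 0 lower (edgeR adjusted p below 0.05), beside 2.22% of all genes higher and 2.25% lower. At an unadjusted p under 0.05, 29 were higher and 1 lower, beside 11.6% and 11% of all genes. DESeq2, which gave an adjusted p for 58 of the members and 12077 of all genes, called 15 members higher, beside 5.51% of those genes. The swimming mean was above the contusion mean in 56 members, while 51.1% of all genes had a log2 difference above 0. The median log2 difference was 0.95 over the members and 0.01 over all genes. Non-overlap was rare all the same: in 4 members every swimming library lay above every contusion library, or 6.35% of the members, beside 7.38% of all genes.

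The number of calls moved with single libraries, the size of the differences mainly with swimming library 2. Without swimming library 2 edgeR called 0 members and the median log2 difference was 0.38; the swimming mean of the other 3 libraries was above the contusion mean in 49 members, and the ratio of the means was 1.30 at the median of all 63. The count was also 0 without contusion library 1, 2 or 4, where the median log2 difference stayed at 0.96, 0.89 and 0.89, 3 without contusion library 3, and 10 without swimming library 3 or 4. Leaving out a library of another group gave 2 calls (without uninjured library 2 or 3) to 7 (without transection library 3). The share of all genes called was not counted with libraries left out, so these changes are not read as particular to the members. Swimming library 2 was the highest of the swimming libraries in 51 members, more than 2 times the next in 32, and above every transection library in 23.

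The members called with swimming were 15, 19, 24, 30 and 63. Member 30 was the most even, at 6.72, 10.7, 7.47 and 4.22 CPM with swimming and 1.30, 2.14, 4.64 and 1.00 CPM after contusion. Its log2 difference of 1.68 (SE 0.43, edgeR adjusted p = 0.0344) was 1.44 without swimming library 2 (adjusted p = 0.0868). Only swimming library 4 was below contusion library 3. Member 19 stood at 16.2, 93.7, 20.5 and 20.8 CPM with swimming, all above contusion libraries at 4.14, 3.15, 10.2 and 0.472 CPM. Its log2 difference was 3.09 (SE 0.77, adjusted p = 0.0369). Without swimming library 2 it was 2.11 (adjusted p = 0.109). Here all 4 swimming libraries lay above the transection mean of 10.2 CPM.

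Member 24 had its highest value in swimming library 1. Swimming libraries held 248, 65.2, 10.6 and 14.6 CPM, transection libraries 17.8, 8.84, 6.80 and 11.2 CPM, and uninjured libraries 0.567 to 2.60 CPM. Contusion libraries ran from 2.95 to 11.9 CPM, and swimming library 3 lay below the highest of these. All 4 walking libraries lay above every transection library. It rose with swimming by a log2 value of 3.32 (SE 0.87, edgeR adjusted p = 0.0429). The size rested on swimming library 1: it was 1.85 without that library (adjusted p = 0.136) and 3.43 without library 2 (adjusted p = 0.0756). It was the 1 member called higher with swimming than after transection (log2 difference of transection over swimming -2.92, edgeR adjusted p = 0.0163). Without swimming library 1 that difference was -1.42 and was not called (adjusted p = 0.141); without transection library 3 it was -2.75 (adjusted p = 0.0533). Members 15 and 63 rested on swimming library 2. Member 15 held 1.34, 31.8, 1.66 and 1.15 CPM with swimming and 0.444 to 1.42 CPM after contusion. Member 63 held 9.18, 78.2, 3.97 and 6.54 CPM with swimming and 1.81 to 4.23 CPM after contusion. Swimming and contusion libraries thus overlapped in both members. The log2 differences of members 15 and 63, 3.38 and 2.94, became 0.68 and 1.05 without swimming library 2.

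**Figure D5:**
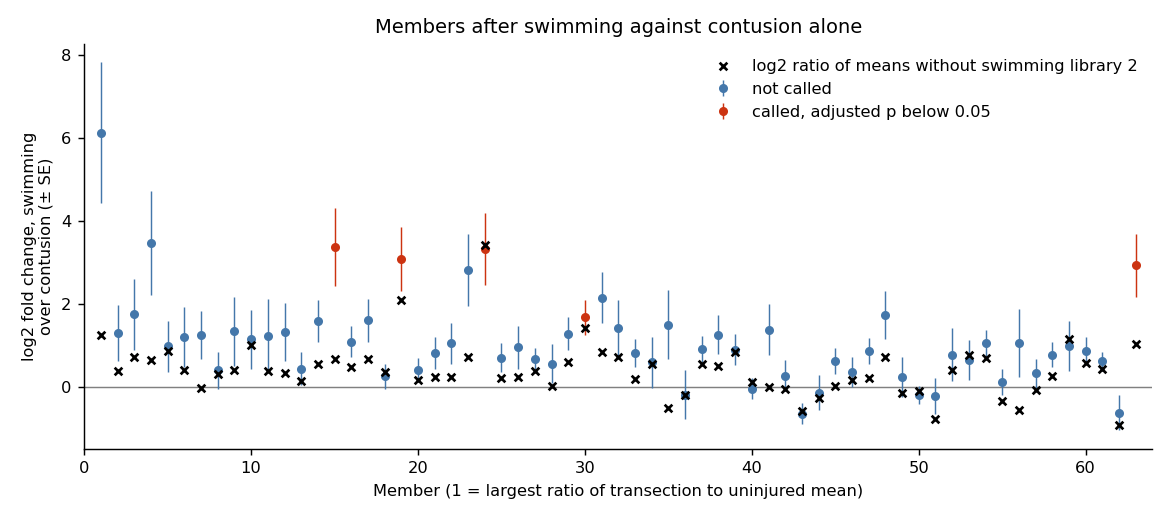
Log2 fold change of each member for swimming against contusion alone, with its SE; red points passed edgeR's test at an adjusted p below 0.05, and crosses give the log2 ratio of group means without swimming library 2. The 5 called members are 15, 19, 24, 30 and 63, and for 53 members the cross lies nearer to 0 than the point.

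The exercise groups were compared with each other at the same 13.5 weeks. No member was called between swimming and walking: edgeR called 0 of 63, beside 0% of all genes higher with swimming and 0.00746% lower, while 17 members were higher with swimming at an unadjusted p under 0.05 (8% of all genes). DESeq2 called 0, beside 0.646% of all genes higher. The median log2 difference was 0.63, and 0.14 without swimming library 2. All swimming libraries lay above all walking libraries in 2 members, as in 3.08% of all genes. Thus the 5 calls for swimming and the 0 for walking against contusion were not matched by any called difference between the exercises.

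Against uninjured muscle, 49 members were higher with swimming and 0 lower (edgeR adjusted p below 0.05), beside 9.99% of all genes higher. Without swimming library 2 the count was 40, and the share of all genes was not counted there. The uninjured libraries are those of the rule. All 10 members called with walking were among the 49, and 39 passed with swimming but not with walking. The direct test of swimming against walking called 0 of 63, so these 39 are not read as particular to swimming. The share of all genes for this overlap was not counted. In 43 members the swimming and uninjured libraries did not overlap, as in 11.5% of all genes, and in 53 the mean was over 2 times the uninjured mean, as in 5.98% of all genes. The swimming mean was above the transection mean in 15 members, and in 4 when library 2 was left out.

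After transection 20 members were higher than with swimming and 1 lower, beside 13.8% of all genes higher and 15.6% lower. Without swimming library 2 these numbers were 38 and 1, and the share of all genes was not counted there. This comparison, like the others with transection, uses libraries of the rule.

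Across the 3 direct comparisons with transection, 18 members were higher after transection than in each contused group, 24 passed in 1 or 2 of the comparisons, and 21 in none. Among all genes tested 3.78% were higher in all 3, 32.2% were called in at least 1 but not higher in all 3, and 64% were called in none. The members were chosen for high transection values, so nothing is read from these counts. The 18 were members 5, 8, 13, 18, 20, 21, 25, 36, 40, 42, 43, 45, 50, 51, 55, 57, 58 and 61.

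Member 43, one of these 18, stood far higher after transection than elsewhere. It held 3163, 4560, 5968 and 2466 CPM after transection, 551, 976, 845 and 903 CPM in uninjured muscle, and 733 to 1616 CPM over all contused libraries. No contused library reached the transection range. Contusion libraries held 1438, 1120, 1615 and 1616 CPM, all above every uninjured library, and swimming libraries 916, 783, 1103 and 915 CPM, all below every contusion library. Transection exceeded swimming by a log2 value of 2.12 (SE 0.26, edgeR adjusted p = 5.55e-06) and contusion by 1.48 (SE 0.25, adjusted p = 5.42e-04). The transection libraries chose the members, and member 43 was picked from those called, so these p-values describe it and support nothing. Swimming against contusion gave -0.64 (SE 0.25) and did not pass (adjusted p = 0.135).

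Member 18 held 170, 148, 286 and 156 CPM after transection and 16.2 to 28.1 CPM in uninjured muscle. Contused libraries ran from 20.8 to 54.7 CPM, so none reached the transection range. Its log2 difference of transection over contusion was 2.62 (SE 0.31, edgeR adjusted p = 1.95e-05). That p-value also comes from the libraries that chose the members and only describes member 18. Swimming library 2 was not the highest for this member, at 29.2 CPM beside 54.7, 39.5 and 24.6 CPM in the others. Member 36 stood at 38.2 to 188 CPM after transection and at 6.52 to 33.7 CPM over the contused libraries, which lay close to the uninjured range of 7.01 to 31.6 CPM.

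In 3 members, 51, 56 and 57, the means of all 3 contused groups were under 1.5 times the uninjured mean. Member 51 held 3.10, 3.89, 4.37 and 5.33 CPM after transection, 0.531 to 1.15 CPM in uninjured muscle and 0.256 to 1.68 CPM over the contused libraries. Member 57 held 4.14, 6.91, 9.53 and 3.08 CPM after transection and 1.01 to 1.77 CPM in uninjured muscle. Its contused libraries ran from 1.03 to 3.58 CPM, and only swimming library 2 reached the transection range. Member 56 was uneven in every group: uninjured libraries held 30.7 to 89.7 CPM, transection libraries 220, 310, 194 and 108 CPM, and walking libraries 5.33, 49.6, 6.68 and 10.6 CPM. Its walking mean was the lowest of all members relative to uninjured muscle, at 0.375 times, and did not pass the test (log2 difference -1.42, SE 0.84, edgeR adjusted p = 0.486).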

How the data were processed

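Stranded poly-A RNA sequencing of soleus muscle was measured in 20 rats, per the labels' protocols. The authors deposited whole-number read counts per Ensembl gene identifier; per the submitters' processing notes FastQC 0.10.1 and HTSeq were used with build rn6. The aligner, annotation and strand setting are not given in the sources used here, so reads of overlapping genes and near-identical copies may be split in an unknown way.

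Of 24613 identifiers, 13398 passed edgeR's filterByExpr (minimum count 10, 5 groups). CPM used TMM scaling. Comparisons used edgeR 4.0.16 quasi-likelihood tests (R 4.3.3) in 1 robust fit of all libraries with 15 residual degrees of freedom, and Benjamini-Hochberg adjustment over all genes tested at 0.05; scripts were tested on simulated data. DESeq2 1.42.0, other scalings and filters, a replicate block and left-out libraries were alternatives. The robust setting was chosen to match earlier results of these data.

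The members and lists were chosen with earlier results of these data known. The planned lists of muscle, denervation and cell type genes could not be applied, because 0 identifiers were paired with symbols; the tissue label was therefore not checked against markers, and no sequence is shown. The 2 named identifiers are the member with the most counts after transection and the member with the largest ratio; members singled out otherwise were chosen after their values were seen. Libraries held 21165832 counts or more, and counting error is large for members with few counts. The edgeR p-values set each difference against the spread between animals within groups. That spread was estimated for each gene over all 5 groups together, and not from the compared groups alone.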

Additional observations from a re-analysis of the deposited data

Results flagged for a closer look

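In 80 sets of 4 libraries examined, 13 held a library far from the other 3 by Dixon's criterion. The sets were the members' share of counts, their median position and the CPM of 14 members, by group. Chance would give about 4 in independent sets of normally spread values. These sets share libraries, and many of the members were chosen after their values were seen, so nothing is read from the excess. Swimming library 2 was the far library in 8 of the 13. It held 16.1% of its counts in the members, and its values were 4469 CPM for member 1, 44427 CPM for member 3, 8600 CPM for member 11, 31.8 CPM for member 15, 93.7 CPM for member 19, 190 CPM for member 56 and 78.2 CPM for member 63. Transection library 3 was far below its group for member 1 (65.0 CPM) and far above it for member 18 (286 CPM). Member 18 was also far higher in uninjured library 2 (28.1 CPM), and member 56 in uninjured library 4 (89.7 CPM) and walking library 2 (49.6 CPM).

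The level after transection differed from that in a contused group, by the direct edgeR test, in 39 members for contusion alone, 21 for swimming and 31 for walking. Among all genes, 6.07%, 13.8% and 8.96% were higher after transection in these comparisons, and 15.6% were lower than with swimming. These comparisons use the transection libraries that chose the members.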

How the results depend on the processing

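For swimming against contusion, the 5 members called became 1 with no low-count filter, 8 at a mean CPM of at least 1, 15 with DESeq2, 1 with the replicate number as a block, 8 without robust estimation (chosen after seeing the data), 0 without transection library 3 and swimming library 2, and 0 to 10 when single libraries were left out. For contusion against uninjured, the 0 became 1 with library totals, 11 with DESeq2, 1 with the block, 7 without those 2 libraries, and 0 to 2 over single libraries. For walking against uninjured, the 10 became 6 with no filter, 26 with DESeq2, 20 without those 2 libraries, and 2 to 12 over single libraries. Leaving out single libraries gave 25 to 41 for transection against contusion, 15 to 39 for transection against swimming, and 52 to 81 members under the rule. The rule gave 34 members with library totals, 141 at more than 3 times and 40 at more than 5 times. For ENSRNOG00000006471, swimming against walking turned to -0.43 without swimming library 2 and -0.44 without both libraries, and transection against swimming turned to 1.77 and 2.00. Over single libraries these ran from -0.43 to 5.28 and from -3.50 to 1.77. With library totals, transection against swimming gave 11 higher and 4 lower. The causes were not tested. Shares of all genes called were counted only for the main settings and for some DESeq2 comparisons. Changes in the number of members called are therefore not read as particular to the members. With group means taken out, same-numbered libraries of different groups correlated between -0.286 and 0.428, with a mean of 0.011. Libraries of other numbers correlated between -0.377 and 0.330, with a mean of -0.003. These ranges overlap and do not settle whether the numbers pair the samples. The block moved no other count by over 1.5 times.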
